A study of Mus musculus with 12 samples.

Results

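In neurons that received the control virus, RNA bound to HA-tagged ribosomes was set against the input RNA of the same kind of culture. The immunoprecipitate (IP) and the input were compared for every gene with 20 or more counts summed over the 3 control input columns. This minimum kept 2626 of the 15391 genes in the table, and RefSeq gives 2532 of the 2553 whose type is known as protein coding. It was set on input alone, so a transcript that is abundant in IP but has few or no input counts could not enter.

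The cells were cultured adult mouse dorsal root ganglion (DRG) neurons of genotype RPL22HA+/+;Advillin-Cre+, preconditioned by an injury of the sciatic nerve before culture. The control IP samples carry AAV-Control in their titles and the control input samples AAV-shControl; both were read as the control virus. A second pair, IP and input from neurons given AAV-shLarp1, a hairpin against the RNA-binding protein Larp1, is used here only as a separate pair of libraries. The tagged allele, the Cre driver and the nerve injury were common to all 4 groups, so no group lacks the tag and non-specific binding to the antibody beads was not measured. Advillin-Cre acts in sensory neurons, whereas the input holds RNA of every cell in the dish, and the extraction text speaks of freshly collected ganglia where the sample labels give cultured neurons.

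In RiboTag mice, Cre recombination switches the last exon of the ribosomal protein gene Rpl22 to a version that ends in an HA epitope. Antibody against HA then pulls ribosomes, and the mRNAs they carry, out of the Cre-expressing cell type within a mixed lysate. A transcript of the tagged cells should weigh more in IP than in input, and a transcript of glia, macrophages or fibroblasts less. The ratio also depends on how many ribosomes sit on each mRNA, and RNA outside cytosolic ribosomes, such as that made inside mitochondria, has no tag to be pulled by.

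Column totals were 3126591 to 3128368 in control IP and 564095 to 564625 in control input. The 3 columns of a group were about as alike as parts of 1 library: 6.96% of 2586 genes in IP and 7.51% of 2131 genes in input, those with at least 30 counts, had a chi-square p under 0.05. Sampling of 1 library alone would give a share near 0.05, so some genes varied more than that. The columns were therefore summed and counted as 1 sample per group. Values are log2 ratios of IP over input after scaling by trimmed mean of M values (TMM), so n = 1 per group, and the 95% Clopper-Pearson intervals cover counting error only, since PCR copies are not independent molecules. A gene was called higher or lower in IP where its whole interval lay beyond 1.5-fold, and no p-value for a single gene is given for this pair.

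Neuronal transcripts were among the most enriched genes, mitochondrially encoded mRNAs were mostly called lower, and a group of 601 genes had very low ratios. Of the 2626 genes, 193 (7.35%) were called higher in IP, 991 (37.7%) were called lower and 1442 were not called. The median log2 ratio was -0.54, with an interquartile range from -1.81 to 0.15. Ratios above 1 were found for 201 genes and above 2 for 31. The split depended on the scaling: it was 861 higher and 617 lower when each group was scaled by its total counts, 78 and 1373 with upper-quartile factors, and 436 and 747 with TMM over these genes alone. Total counts moved every log2 ratio up by 0.97, TMM over these genes alone moved it up by 0.52, and upper-quartile factors moved it by -0.48. Measured from the median of the 2626 genes, a centring chosen after seeing the data that does not depend on the scaling, 444 (16.9%) were higher and 738 (28.1%) lower.

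**Figure D1:**
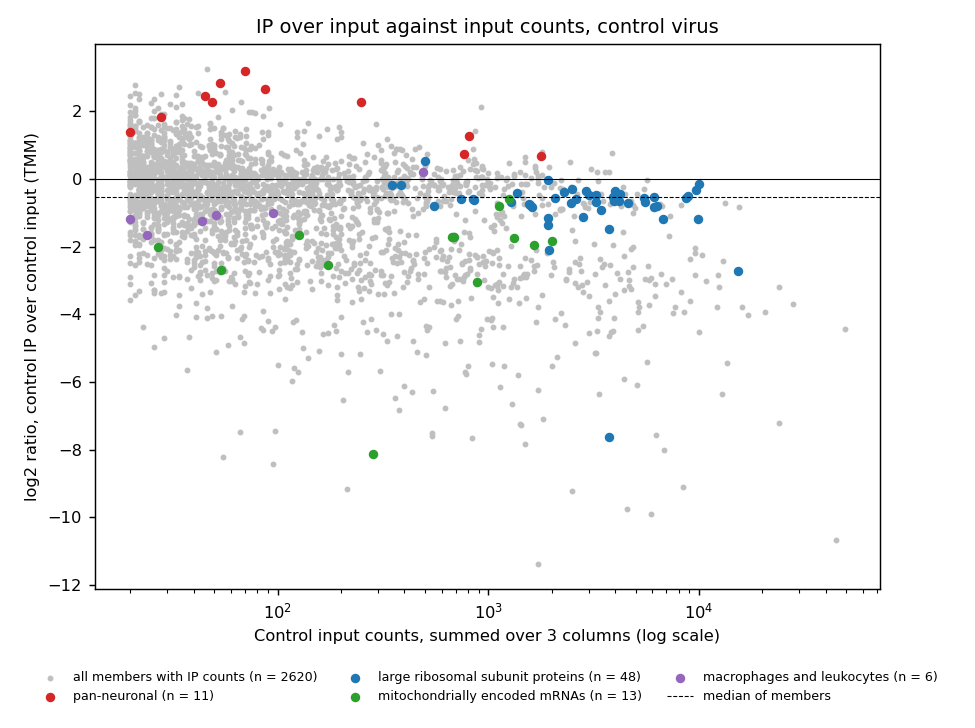
The log2 ratio of control IP over control input (TMM, vertical axis) is plotted against the summed control input count (log scale) for the 2620 genes with counts in both fractions. Pan-neuronal genes (red) all lie above 0, large ribosomal subunit genes (blue) cluster near the median of -0.54 (dashed), and mitochondrially encoded mRNAs (green) and 5 of 6 macrophage genes (purple) lie below 0; total-count scaling would raise every point by 0.97.

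Input depth set how precise a ratio was. Among the 968 genes with 20 to 49 input counts the interval was typically 1.18 log2 units wide, and 117 were called higher and 193 lower. Among the 813 genes with 200 or more input counts the typical width was 0.25, and 24 were called higher and 479 lower. The 73 genes exactly at 20 input counts had a median log2 ratio of 0.23, from -3.59 to 2.45. The 67 genes just outside, at 19 input counts, had a median of -0.08, from -5.10 to 2.89.

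Genes that mark sensory neurons were enriched. Nefl, the light neurofilament chain of axons, had 2272, 2322 and 2265 counts in the IP columns, against 17, 33 and 20 in the input columns. With 20 input counts weighing as much as 217 IP counts after scaling, this was a 9.05-fold higher level in IP (log2 3.18, interval 2.84 to 3.54). Prph, the peripheral neuron intermediate filament peripherin, had 1992, 1936 and 1961 IP counts, against 31, 28 and 28 input counts (log2 2.64, 2.34 to 2.97). Tubb3, the neuronal beta-tubulin, had 4383, 4288 and 4310 IP counts, against 78, 88 and 83 input counts (log2 2.27, 2.09 to 2.45). For each of the 3 genes all IP columns lay above all input columns after scaling. The columns of IP and input did not overlap for 1995 (76%) of the 2626 genes, in either direction. Ret, the receptor tyrosine kinase for the GDNF family of ligands, missed the minimum with 18 input counts, and its 499, 521 and 534 IP counts gave a log2 ratio of 2.99 (2.33 to 3.75). Avil, whose promoter drives the Cre, missed it too, with 761 IP and 15 input counts (log2 2.23, 1.5 to 3.07).

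The upstream sequences of Tubb3 and Prph, neuron markers used to check the IP, and of Sprr1a, the highest of the injury genes below, are shown because promoters of injury genes are known to bind AP-1 factors such as Atf3 and Jun. They are the 250 bases before the start in RefSeq (GRCm38.p6), at chr8:123411303-123411552 on the plus strand for Tubb3, chr15:99054924-99055173 on the plus strand for Prph and chr3:92485882-92486131 on the minus strand for Sprr1a. Capitals mark the letters of an AP-1 motif, TGANTCA, or of a TATA motif, TATAAA, on either strand.
Tubb3: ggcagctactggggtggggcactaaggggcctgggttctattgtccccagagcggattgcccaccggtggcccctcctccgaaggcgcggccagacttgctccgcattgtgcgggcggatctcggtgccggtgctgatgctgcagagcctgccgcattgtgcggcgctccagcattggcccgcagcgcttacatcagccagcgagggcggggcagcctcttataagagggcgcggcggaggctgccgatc
Prph: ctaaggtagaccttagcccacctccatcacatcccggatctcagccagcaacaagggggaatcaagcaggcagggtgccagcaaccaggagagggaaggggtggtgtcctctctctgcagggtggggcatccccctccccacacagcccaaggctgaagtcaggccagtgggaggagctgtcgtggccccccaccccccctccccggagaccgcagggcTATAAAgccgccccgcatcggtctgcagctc
Sprr1a: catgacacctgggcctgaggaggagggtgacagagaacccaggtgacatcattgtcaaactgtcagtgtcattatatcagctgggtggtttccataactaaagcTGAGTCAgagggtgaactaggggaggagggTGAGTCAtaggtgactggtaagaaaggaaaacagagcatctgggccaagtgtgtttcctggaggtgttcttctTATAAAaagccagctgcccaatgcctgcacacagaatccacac
The Sprr1a window held 2 AP-1 matches and 1 TATA match, the Prph window 1 TATA match, and the Tubb3 window neither. Over the 32851 promoters of the table, 6.75% held the AP-1 letters and 12.4% the TATA letters. None of the 3 windows held the cAMP response element letters TGACGTCA, which 1.55% of promoters hold. A match describes letters only.

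All 11 of the pan-neuronal genes above the minimum were called higher, against 7.35% of all genes compared, with a median log2 ratio of 2.27 and a range of 0.68 to 3.18. The list has 25 genes in the table, and the others were too rare in input. Beside the 3 above it includes Nefm (2.83), the medium neurofilament chain, Thy1 (2.45), a neuronal surface glycoprotein that fibroblasts also carry, Map1b (2.29), a microtubule-associated protein of growing axons, Eno2 (1.82), the neuronal enolase, and Snap25 (1.39), a SNARE of synaptic vesicle fusion. The most abundant members were the least enriched. Stmn2, a microtubule regulator of growing axons, had 7042, 7065 and 7008 IP counts, against 261, 249 and 300 input counts (log2 1.27, 1.17 to 1.37). Uchl1, a neuronal ubiquitin hydrolase, had 10276, 10199 and 10327 IP counts, against 609, 562 and 601 input counts (log2 0.68, 0.61 to 0.75). Both pairs of columns were fully apart, and the 1.61-fold difference of Uchl1 was the smallest of the list.

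**Figure D2:**
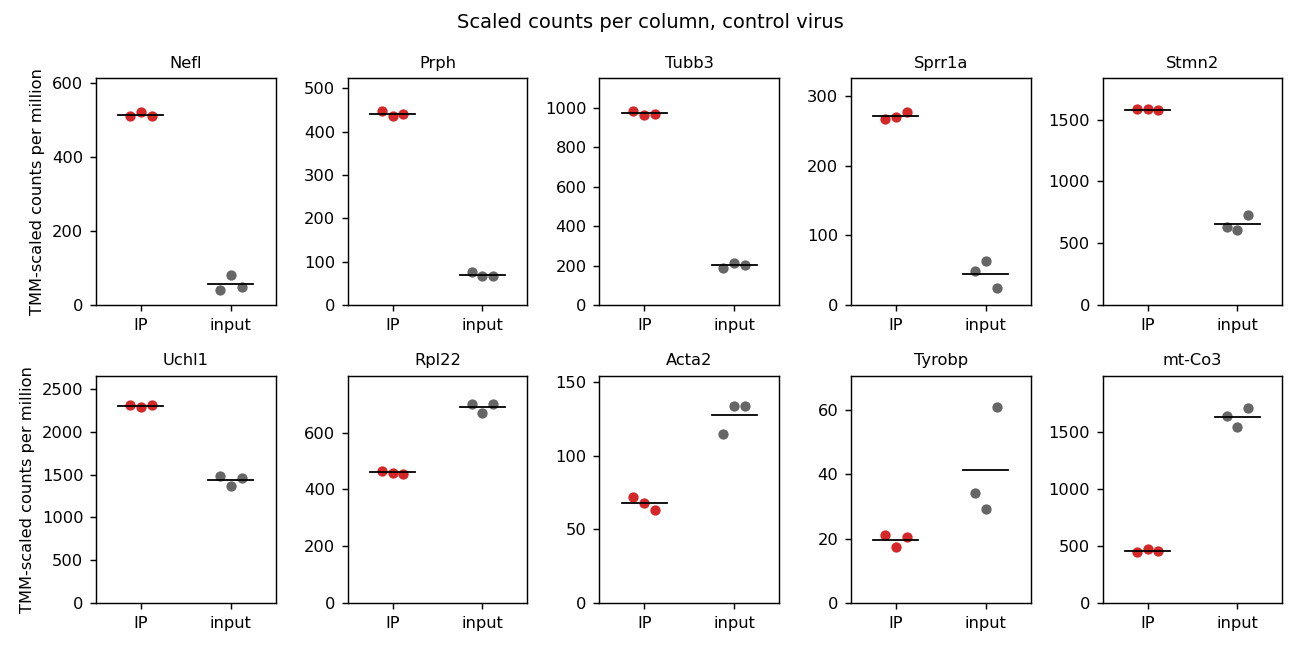
TMM-scaled levels per column (a count divided by the scaled library size, vertical axis in CPM) are shown for 10 genes in the 3 control IP columns (red, left in each panel) and the 3 control input columns (grey, right), with bars at the group mean; the columns of a group are counted as 1 sample. Nefl, Prph, Tubb3, Sprr1a, Stmn2 and Uchl1 are higher in IP, and Acta2, Tyrobp and mt-Co3 are lower in IP; Rpl22 has lower values in IP without a call, and Rpl22 and Acta2 turn higher with total-count scaling.

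Transcripts of the injury response were enriched as well. Of 17 regeneration-associated genes above the minimum 11 were called higher and 0 lower (median 1.23), beside 7.35% and 37.7% of all genes. Sprr1a, a cornified-envelope protein induced in axotomized sensory neurons, had 1186, 1199 and 1235 IP counts, against 20, 26 and 10 input counts (log2 2.58, 2.20 to 2.99). Atf3, the bZIP factor induced by axon injury, had 463, 446 and 457 IP counts, against 5, 9 and 8 input counts (log2 2.52, 1.92 to 3.20). Both were among the 12 highest genes named by the rule given in the methods. Gadd45a (1.61), a stress-induced growth arrest gene, Tubb2b (1.47), a beta-tubulin of axon growth, Gap43 (1.23), a growth cone protein, and Jun (1.19), the AP-1 subunit, were called higher. Gal, the neuropeptide galanin, had a ratio of 0.72 that did not clear the rule, and Stat3, a transcription factor of cytokine signalling, had -0.36.

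Neuropeptide and granin genes followed, with 8 of 14 called higher and 0 lower (median 1.01), beside 7.35% and 37.7% of all genes. The granin-like Vgf had 854, 891 and 903 IP counts, against 14, 15 and 13 input counts (log2 2.54). Pcsk1n (2.52), an inhibitor of a prohormone convertase, Cpe (2.11), a carboxypeptidase that trims propeptides, and Npy (1.05), neuropeptide Y, were called higher. Calca, which encodes CGRP, had 1619, 1626 and 1624 IP counts, against 113, 92 and 103 input counts, and its ratio of 0.55 was not called.

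Synaptic vesicle genes had 9 of 15 called higher and 0 lower (median 1.21), beside 7.35% and 37.7% of all genes. They were led by Syt4 (2.70), a synaptotagmin of dense-core vesicles, and Vamp2 (2.36), the vesicle SNARE. Cytoskeleton and transport genes had 23 of 37 called higher and 0 lower (median 1.23). Beside the neurofilaments these included the kinesins Kif1a (2.02), Kif5a (1.65) and Kif5b (1.54) and the tubulins Tubb4b (1.99) and Tuba1a (1.43). Lower in the list stood the actin regulators Cfl1, a cofilin (-0.24), and Pfn1, a profilin (-0.40), both above the median of all genes (-0.54). Another profilin, Pfn2, had 1.05 without a call, and the actin gene Actb was called higher (0.89). Several genes stand in more than 1 of these lists.

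Sensory subtype and ion channel genes could hardly be read at this input depth. The minimum left 6 of 29 subtype genes, of which 0 were called higher and 1, the neurotrophin-3 receptor gene Ntrk3 (-2.37), was called lower with 65 IP and 31 input counts. Over all genes the shares were 7.35% higher and 37.7% lower. The median of the 6 was 0.15, with 3 above 0 and 3 below. A further 17 subtype genes with 1 to 19 input counts together had 4502 IP and 97 input counts (log2 2.10, 1.81 to 2.40). None of the 29 ion channel genes in the table passed. Scn10a, the nociceptor sodium channel Nav1.8, had 252 IP and 4 input counts, and the 23 channel genes with 1 to 19 input counts together had 2425 IP and 64 input counts (log2 1.81, 1.45 to 2.19). Both sums are raised by the choice of genes with low input.

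Several chaperone mRNAs had high ratios and others did not. Hsp90aa1, the inducible cytosolic HSP90, had the highest ratio of the named genes, with 1602, 1547 and 1608 IP counts, against 17, 15 and 14 input counts (log2 3.26, 2.84 to 3.71). Hspa8, the constitutive HSC70, had 14676, 14675 and 14762 IP counts, against 324, 326 and 278 input counts (log2 2.13, 2.04 to 2.23). Of 8 immediate early and heat shock genes 5, Atf3 among them, were called higher, beside 7.35% of all genes. Hspe1, a mitochondrial co-chaperonin, had -0.23. In the endoplasmic reticulum list 4 of 25 were called higher, among them Hspa5 (2.14) and Hsp90b1 (1.93), the BiP and GRP94 chaperones, and 2 lower, around a median of -0.23 (0.73 with total counts). The chaperone gene Hyou1 (-1.67) was called lower, and Pdia4 (-0.78), a disulfide isomerase, was not called. Vcp (2.47), an AAA ATPase that extracts ubiquitinated proteins, Maged1 (2.77), a MAGE family adaptor, and Rgs4 (2.53), a GTPase activator for G proteins, completed the 12 highest.

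**Figure D3:**
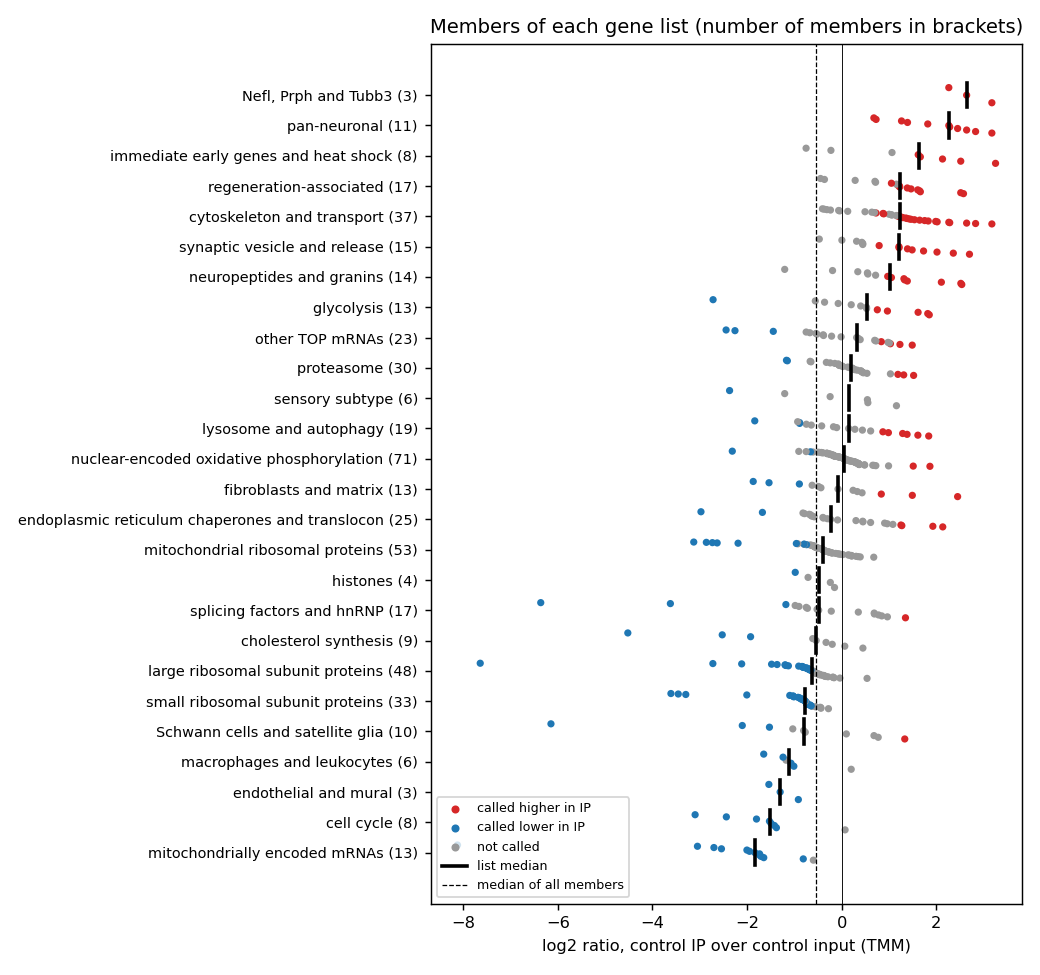
Each row is a gene list with at least 3 genes above the input minimum, ordered by its median log2 ratio of control IP over control input (black bar, TMM); points are single genes, red where called higher in IP, blue where called lower and grey otherwise. Pan-neuronal, regeneration, synaptic vesicle and cytoskeleton lists have medians above 1 and mitochondrially encoded mRNAs the lowest median, -1.83; with total-count scaling all medians rise by 0.97, and those of ribosomal protein, glial, fibroblast, histone, cholesterol, splicing, endoplasmic reticulum and mitochondrial ribosomal genes are then above 0, while upper-quartile factors put those of sensory subtype, lysosome, proteasome, oxidative phosphorylation and other TOP genes below 0.

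Markers of other cell types were called about as often as all genes. Of 30 genes above the minimum on the glial, fibroblast, macrophage and vessel lists, leaving out Thy1 and Vim because they also stand on other lists, 2 (6.67%) were called higher and 13 (43.3%) lower, beside 7.35% and 37.7% of all genes, with a median of -0.85 against -0.54 for all genes. The direction turned with the scaling: with total counts 8 were higher and 3 lower, and measured from the median of all genes 5 were higher and 6 lower. In bulk RNA, fewer cells of a type and less RNA per cell cannot be told apart. Of 6 macrophage genes 4 were called lower (median -1.12; -0.16 with total counts, where 0 were). Tyrobp, an adaptor of myeloid receptors, had 94, 78 and 91 IP counts, against 14, 12 and 25 input counts (log2 -1.07, -1.51 to -0.61). All 3 vessel-wall genes were called lower (median -1.30; -0.33 with total counts, where 0 were). They include Acta2, smooth muscle actin, with 319, 302 and 281 IP counts, against 47, 55 and 55 input counts (log2 -0.91, but 0.05 with total counts).

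The glial list had 1 of 10 called higher and 3 lower, near the 7.35% and 37.7% of all genes. Its median was -0.79 (0.18 with total counts). S100b, a calcium-binding protein used as a Schwann cell marker, was the one called higher, with 592, 599 and 613 IP counts, against 25, 23 and 18 input counts (log2 1.34). Fabp7, a fatty acid-binding protein of satellite glia, had 420, 413 and 412 IP counts, against 99, 119 and 113 input counts (log2 -1.53). The myelin gene Mbp (-1.03) was not called, with 51 input counts. In the fibroblast list 3 of 13 were called higher, Thy1, Timp2 (1.5) and Vim (0.84), and 3 lower, Timp1 (-1.53), Mgp (-0.89) and Fn1 (-1.87), around a median of -0.08 (0.89 with total counts). The IP was not free of these cell types' markers: Cd68, a macrophage marker too rare in input to be compared, had 54 IP and 13 input counts, and Pecam1, an endothelial one, had 14 IP and 2 input counts. Of 8 cell-cycle genes 7 were called lower and 0 higher (median -1.51; -0.54 with total counts, where 2 were lower). The 16 cell-cycle genes with 1 to 19 input counts together had 1251 IP and 132 input counts (log2 -0.19, -0.45 to 0.08), a sum raised by the choice of low input, and 2 of the 8, Cenpf and Ccnb1, belong to the class of very low ratios described below. Cenpf, a kinetochore protein, had 652, 648 and 660 IP counts, against 299, 345 and 336 input counts (log2 -2.44, -2.55 to -2.32).

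Ribosomal protein mRNAs, which make up a large share of both libraries, sat close to the middle of the distribution. The large subunit genes held 12.7% of the IP counts and 10.9% of the input counts, and the small subunit genes 8.09% and 8.01%. Of 48 large subunit genes 23 were called lower (median -0.62) and of 33 small subunit genes 26 (median -0.77), beside a background of 37.7%, but with total counts the medians were 0.35 and 0.20 and 7 and 1 were called higher. The interquartile range of the 81 genes ran from -0.88 to -0.55, and 65 of them lay within 0.5 of the median of all genes. Rpl22, the tagged gene itself, had 2075, 2040 and 2022 IP counts, against 288, 275 and 288 input counts, which gave -0.59 (-0.69 to -0.48) and no call. Its paralog Rpl22l1 had -0.04 (0.93 with total counts).

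The spread was made by a few genes. Rplp2, an acidic stalk protein, was the highest of the 81 at 0.54, with 2856, 2636 and 2420 IP counts, against 163, 183 and 157 input counts. In all, 7 genes lay below -2, among them Rpl12, Rpl41, Rps12 and Rps13, and Rpl36 stood farthest out with 70, 55 and 77 IP counts, against 1209, 1250 and 1265 input counts (log2 -7.64). Rps28 had 2817, 2545 and 2669 IP counts, against 3005, 2978 and 3065 input counts (log2 -3.61). Many ribosomal protein genes have near-identical pseudogenes, and estimated counts can split reads among such copies, so these single values are uncertain.

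Ribosomal protein mRNAs belong to the TOP class, whose transcripts start with a C inside a run of pyrimidines that Larp1 and the translation machinery read. The start windows of the 3 highest and 3 lowest genes that have a RefSeq entry are shown to set this feature beside the ratios, from 10 bases before to 20 bases from the annotated start (GRCm38.p6). They lie at chr7:141447641-141447670 for Rplp2, chr3:28805498-28805527 for Rpl22l1 and chr11:114668570-114668599 for Rpl38, all on the plus strand, and at chr10:128549149-128549178 for Rpl41, chr10:23787190-23787219 for Rps12 and chr17:33824543-33824572 for Rps28, all on the minus strand. Capitals mark the unbroken run of C and T over the start base.
Rplp2: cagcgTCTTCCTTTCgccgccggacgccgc
Rpl22l1: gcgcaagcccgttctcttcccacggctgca
Rpl38: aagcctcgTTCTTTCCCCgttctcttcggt
Rpl41: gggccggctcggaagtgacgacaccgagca
Rps12: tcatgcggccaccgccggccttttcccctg
Rps28: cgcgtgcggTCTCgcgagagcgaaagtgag
The run was 10 bases long in Rplp2 and in Rpl38, 4 in Rps28 and 0 in the others, whose annotated start base is a purine. Of the 60 ribosomal protein genes with an entry, 19 had a run of 5 or more bases and a median log2 ratio of -0.66, and 41 had a shorter run or none and a median of -0.65. The ranges of the 2 groups overlapped, and 10.1% of all promoters have such a run. An annotated start can miss the base used in neurons. The rule also gives 0 where pyrimidines begin just after a purine start base, as in Rpl22l1, and it counts bases before the start. The 2 groups therefore need not be genes with and without a TOP start.

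The other TOP mRNAs, mostly translation factors, had 4 of 23 called higher and 3 lower (median 0.32, below 0 with upper-quartile factors). The shares over all genes were 7.35% and 37.7%. Eef1a2 (1.49), the elongation factor form of neurons and muscle, Eif4a2 (1.23), an initiation helicase, and Eef2 (1.03), the translocation factor, were called higher with Vim. Tpt1, the translationally controlled tumour protein, had 1743, 1755 and 1662 IP counts, against 876, 876 and 838 input counts (log2 -2.44). Ppia, cyclophilin A, was called lower at -2.25. Ppia, a gene with many processed copies, had 6654, 8280 and 8656 IP counts, a wider spread over columns than the genes above.

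Genes for the mitochondrion split by the genome that encodes them. Of the 13 mRNAs made inside mitochondria 12 were called lower (median -1.83; -0.87 with total counts, where 9 were), beside the 37.7% of all genes. mt-Co3, a cytochrome oxidase subunit, had 1989, 2094 and 2021 IP counts, against 673, 633 and 703 input counts (log2 -1.83, -1.91 to -1.76). mt-Co1 (-0.60) was the one not called, mt-Co2 (-0.81) was the only called one that turned positive with total counts, and mt-Nd3 had 6, 5 and 0 IP counts, against 80, 102 and 101 input counts. The 71 nuclear genes of oxidative phosphorylation above the minimum had 2 called higher, Atp5b (1.87) and Atp5a1 (1.51), the catalytic subunits of ATP synthase, and 2 lower, with a median of 0.06 (below 0 with upper-quartile factors) and 56 called higher with total counts. The 53 mitochondrial ribosomal protein genes had 0 higher and 8 lower (median -0.40; 0.56 with total counts). The mitochondrial rRNAs could not be compared: mt-Rnr2 had 8606 IP counts and mt-Rnr1 3220, against 0 input counts for both.

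Metabolic and housekeeping lists had medians between -0.54 and 0.53, and the shares over all genes were 7.35% higher and 37.7% lower. Glycolysis had 5 of 13 called higher and 1 lower (median 0.53), with Pgam1 (1.85), Eno2 and Pgk1 (1.62) highest and the neuronal glucose transporter gene Slc2a3 (-2.72) lowest. The proteasome list had 3 of 30 higher and 2 lower (median 0.20, below 0 with upper-quartile factors), and 23 were higher with total counts. The lysosome and autophagy list had 6 of 19 higher, led by the autophagy gene Gabarapl1 (1.84) and the cargo receptor gene Sqstm1 (1.61), and 3 lower, among them the protease Ctsl (-1.84), around a median of 0.15 (below 0 with upper-quartile factors). Cholesterol synthesis had 0 of 9 higher and 3 lower (median -0.54, or 0.43 with total counts). The lower ones include Srebf2 (-2.52), the factor that drives the pathway. Like Slc2a3 and Snhg11, Srebf2 belongs to the class of very low ratios described next. Splicing factors had 1 of 17 higher and 3 lower (median -0.48; 0.48 with total counts), and 1 of 4 histone genes, H2afz (-0.98), was called lower. Snhg11, the only long non-coding RNA of its list above the minimum, was called lower (-2.19).

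At the bottom stood 601 genes with ratios below -2, which were grouped after their values were seen. The class took 10.1% of the control IP counts but 54.9% of the control input counts, and 17 of the 20 largest input counts belong to it. The 12 lowest named genes range from Lgi1 (-7.25), a secreted synaptic protein, to Rep15, a Rab15 effector, with 1, 3 and 3 IP counts, against 589, 583 and 558 input counts (log2 -11.39, -12.70 to -10.34). Lztr1, a substrate adaptor of a ubiquitin ligase, had 102, 98 and 96 IP counts, against 14921, 14881 and 14785 input counts (log2 -10.67). Trpm2, a cation channel, had 21, 27 and 19 IP counts, against 1998, 1948 and 1998 input counts (log2 -9.91). A further 6 genes had 0 IP counts, among them Akap5, a kinase anchoring protein, with 182, 159 and 216 input counts, at least 2011-fold lower in IP when 3 counts for the whole group are taken as the floor.

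Of the 30 markers of other cell types 2 belong to the class, Sparc and Mag, beside 601 of all 2626 genes. So do Ntrk3, Tpt1, Ppia, Slc2a3, Srebf2 and Snhg11, and the mitochondrial mRNAs mt-Nd2, mt-Nd3, mt-Nd4l, mt-Nd5 and mt-Atp8. The 7 ribosomal protein genes with ratios below -2 are members as well. Ccdc62, a coiled-coil protein gene, had the largest input count, with 8161, 8042 and 8216 IP counts, against 16235, 16421 and 16526 input counts (log2 -4.45). Nanog, a transcription factor of pluripotent cells, had 4843, 4776 and 4715 IP counts, against 3510, 3574 and 3697 input counts (log2 -3.03). Of 14 olfactory receptor genes above the minimum 11 belong to the class and 13 were called lower, beside 601 and 991 of all 2626 genes. Together the 14 had 31272 IP and 19393 input counts. Those 3 examples were chosen after their values were seen. Whether the counts of the class come from the genes named, from overlapping transcripts or from how reads were assigned was not tested.

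The shLarp1 pair, from separate IP and input libraries, gave similar ratios. Of the 193 genes called higher with the control virus 180 (93.3%) were called higher with shLarp1 and 0 lower. Of the 991 called lower 888 (89.6%) were called lower and 0 higher. Read the other way, 50.4% of the 357 genes called higher with shLarp1 (13.6% of those compared) and 90.7% of the 979 called lower (37.3%) were so called with the control virus. Over the 2620 genes with IP counts in both pairs the log2 ratios had Pearson's r = 0.95 and Spearman's rho = 0.92, a description across genes, which are not independent replicates. Tubb3 had 2.99 with shLarp1 and 2.27 with the control virus, Prph 2.77 and 2.64, Nefl 2.63 and 3.18, and Uchl1 2.04 and 0.68. The last shows how far a single value can differ between pairs; whether virus or library made the difference cannot be told apart.

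**Figure D4:**
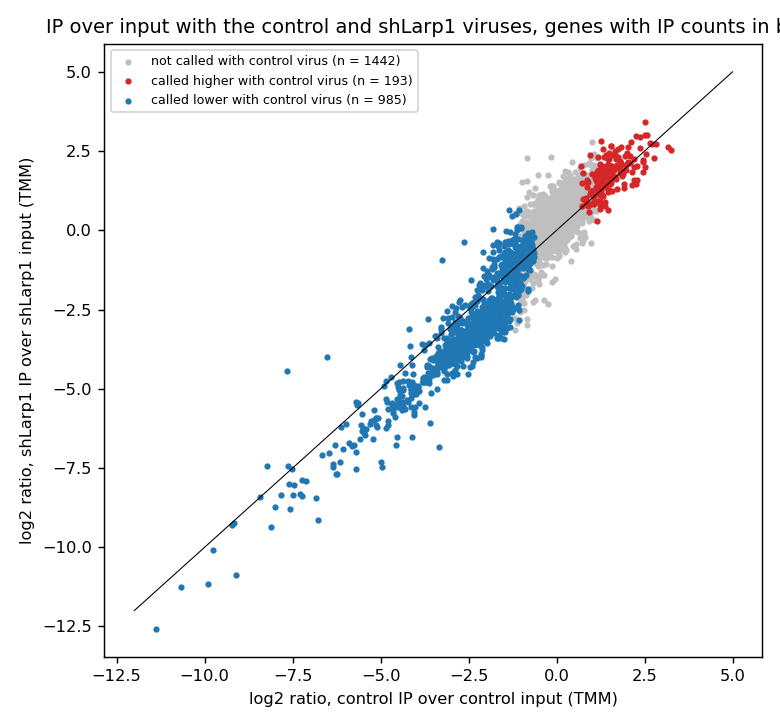
The log2 ratio of IP over input with shLarp1 (vertical axis) is plotted against that with the control virus (horizontal axis), both after TMM scaling, for the 2620 genes with IP counts in both pairs; red and blue mark the genes called higher and lower with the control virus and the line marks equal values. No gene called in 1 direction with the control virus was called in the other with shLarp1.

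With both pairs in 1 model (edgeR quasi-likelihood on the 4 summed libraries, virus as a block, 1 residual degree of freedom, Benjamini-Hochberg adjusted p under 0.05) 212 genes (8.07%) were higher in IP and 1144 (43.6%) lower; with total counts these numbers were 1167 and 682. The test shares its spread across genes, with the shLarp1 pair standing in as the replicate of the control pair. Its p-values therefore do not measure spread between control cultures. Among the genes that passed were 168 of the 193 and 967 of the 991 above. The model holds the control pair itself, so this overlap is partly built in. Nefl was higher by 2.64 on the log2 scale (adjusted p = 0.000392), Prph by 2.45 (0.000409), Tubb3 by 2.37 (0.000714) and Sprr1a by 2.54 (0.000396), each in 2 of 2 pairs. mt-Co3 was lower, with -2.64 (0.000863), and the matrix gene Sparc with -2.56 (0.000388). Of the named genes called with the control virus, 9 did not pass: S100b (adjusted p = 0.068), Npy (0.0566), Eef2 (0.0598), Ctsb (0.053), Ctsd (0.0529), Vim (0.131), Sncg (0.127), Mgp (0.0739) and Lyz2 (0.108).

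The class of low ratios was set on the control pair alone, and its share also differed between the libraries of the 2 viruses. It took 8.09% of the shLarp1 IP counts and 10.1% of the control IP counts, but 63.6% of the shLarp1 input counts and 54.9% of the control input counts. For genes with at least 100 control input counts, the level per total counts in shLarp1 input over control input had a median log2 of 0.21 (interquartile range 0.11 to 0.30) over 422 genes of the class, against -0.35 (-0.60 to -0.12) over 756 other genes. In IP the corresponding medians were -0.34 and 0.12. Of the 601 genes 586 lay below -2 with shLarp1 too, as did 160 of the other 2025. Shares of a total add up, so a larger share of the class lowers the level per total counts of the other genes by construction. Its part in the differences between the 2 pairs was not tested.

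**Figure D5:**
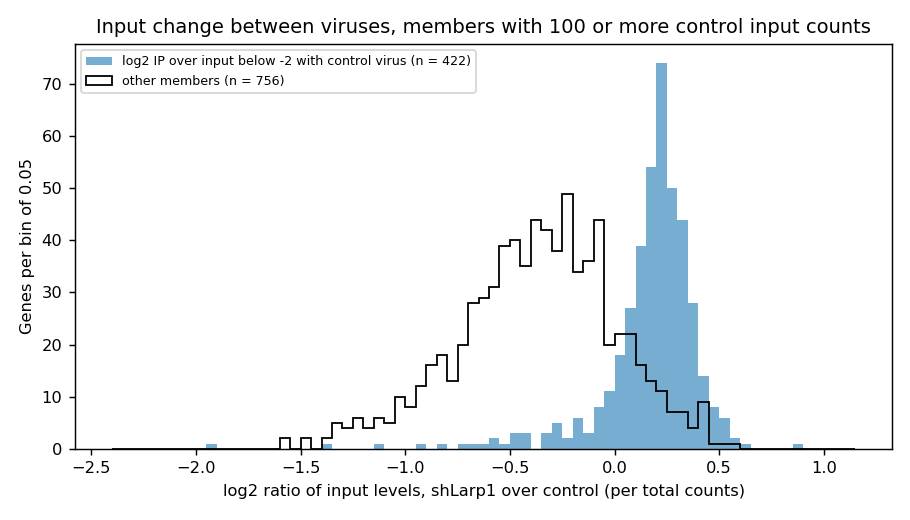
The log2 ratio of input levels, shLarp1 over control per total counts (horizontal axis), is shown as the number of genes per bin of 0.05 for the 422 genes with an IP-over-input ratio below -2 in the control pair (blue) and the 756 others (black outline), all with at least 100 control input counts. The class has its median at 0.21 and the other genes at -0.35.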

How the data were processed

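RNA of IP and input was read by nanopore sequencing after a cDNA-PCR barcoding kit, per the labels' protocols. The authors deposited estimated counts, whole numbers for each gene and unscaled. Minimap2, Salmon and the build GRCm39 (mm39) are named, per the submitters' processing notes. Their versions, the annotation and the use of strand: not given in the sources used here. Counts of overlapping genes or close copies are uncertain, because reads may be shared among them.

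The 3 columns of a group were compared by a chi-square test per gene, found to be about as alike as parts of 1 library, summed and counted as 1 sample. The planned count test over columns was therefore run only as an alternative. No label ties a column to a culture or an animal of its own. Summed counts (9382094 for control IP and 1693039 for control input) were scaled with TMM factors from edgeR 4.0.16 (R 4.3.3) over the 12 columns and the 8773 genes kept by filterByExpr with a minimum count of 10, and the log2 ratio was given an exact 95% interval. A gene was called where the interval lay beyond 1.5-fold. DESeq2 1.42.0 gave another scaling and another test over columns. The interval rule was tried on simulated counts with the scaling given, and edgeR's test on simulated columns with as many genes raised as lowered. Neither tests TMM scaling where most called genes are lower, as here. Promoter and start sequences are from RefSeq on GRCm38.p6, matched by symbol.

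The named genes are Rpl22, Avil, Tubb3, Nefl, Prph and Ret, the 12 highest and 12 lowest called genes with a standard symbol, a total count at or above the median and no overlap of columns, and up to 4 genes per list by count. Other genes were named from the lists after their values were seen, and a few are not reported here. The genes compared and the lists were chosen with earlier results of these data known.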

Additional observations from a re-analysis of the deposited data

How the results depend on the processing

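Each alternative was run on the numbers of genes called higher and lower, 193 and 991 as reported. By scaling, total counts gave 861 and 617, upper-quartile factors 78 higher, TMM over these genes and the 6 control columns alone 436 higher, and centring on their median, added after seeing the data, 444 higher. DESeq2 size factors (231 and 927) and leaving out mitochondrially encoded genes (191 and 981) stayed within 1.5 times. An input minimum of 10 counts gave 351 higher, of 50 gave 76, and of 100 gave 35 higher and 645 lower. With filterByExpr in place of a minimum, which lets in genes with few or no input counts, 2020 were higher. An interval beyond 2-fold left 87 higher and a point ratio beyond 1.5-fold gave 355. Leaving out each control column in turn gave 145 to 193 higher and 948 to 1003 lower. With columns taken as replicates, edgeR called 451 higher and 1427 lower and DESeq2 511 higher and 1304 lower, at an adjusted p under 0.05. The replicate block changed this little, to 446 and 1420. Same-numbered IP and input columns had deviations correlated by 0.0836, 0.124 and -0.0627. With columns about as alike as parts of 1 library, these values cannot show whether same-numbered columns were paired. The model of both virus pairs, with 212 higher and 1144 lower, gave 1167 and 682 with total counts and 160 and 1350 with upper-quartile factors. Of 88 named genes, 12 turned positive with total counts: Rpl22l1 (0.93), H3f3b (0.73), Rpl22 (0.38), Atp5g1 (0.31), Rps19 (0.20), Mrpl33 (0.17), mt-Co2 (0.16), Rpl32 (0.15), Rps29 (0.14), Cd63 (0.0779), Mgp (0.0737) and Acta2 (0.0521). Input depth limits the precision: 968 of the genes compared have fewer than 50 input counts.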

Other observations

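Many transcripts that were abundant in control IP fell under the input minimum. Of the 12765 genes below it, 1256 had at least 217 IP counts, the equal of 20 input counts after scaling, and 556 of these had 0 counts in control input. Genes with 0 control input counts together held 16.4% of the control IP counts. They include several long non-coding RNAs: Gas5 had 13812 IP counts, Ftx 8130, Pvt1 3712, Snhg1 3243 and Malat1 363, each against 0 input counts. The shLarp1 libraries had 13772 IP and 0 input counts for Gas5. Whether input and IP were counted against the same set of transcripts was not tested.

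Neuronal genes with few input counts had positive ratios too, although the choice of low input raises their sums. Other lists with 1 to 19 input counts were also positive, such as proteasome (log2 2.20), glycolysis (1.87) and lysosome and autophagy genes (1.45). Only the macrophage and cell-cycle (-0.19) sums lay below 0. These sums therefore do not set neuronal genes apart. The 12 pan-neuronal genes with 1 to 19 input counts had 4089 IP and 88 input counts together (log2 2.10, 1.80 to 2.42). The 18 synaptic vesicle genes in that range had 5522 IP and 119 input counts (log2 2.10, 1.84 to 2.37). Nefh, the heavy neurofilament chain, had 1527 IP and 19 input counts, and Isl1, a sensory neuron transcription factor, had 86 IP and 2 input counts. The 7 macrophage genes in the same range had 274 IP and 27 input counts (log2 -0.09, -0.67 to 0.53), and the 18 glial genes had 1983 IP and 102 input counts (log2 0.84, 0.56 to 1.15).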
